A study of Sycon ciliatum with 26 samples.

Results

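A set of 61 gene IDs of the calcareous sponge Sycon ciliatum was low on the first 2 days after dissociation, was raised by days 3-4 and stayed raised to days 21-24 of regeneration. The members were chosen by their measured window means, from 35307 IDs, in CPM (the read count of an ID scaled to a library total of 1000000 counts). An ID entered if its mean was at least 10 CPM in each of the 5 windows from days 3-24, and at least 3 times the higher of the means of day 1 and day 2. In addition, 3 times its mean at days 3-4 had to reach its means at days 6-8, 16-18 and 21-24. Lastly, its lower mean at days 16-18 or 21-24, times 1.8, had to exceed its lower mean at days 3-4 or 6-8. Of 7927 IDs at 10 CPM or more in all 5 windows, 126 met the 3-fold condition, 64 of these were left out because they were still far below a later level at days 3-4, and 1 was left out because it was not kept. The early low level, the rise and the maintained level therefore come from the rule and are given below as descriptions only.

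The libraries held messenger RNA of regenerating structures, with 2 libraries each at day 1 and day 2, 6 at days 3-4, 6 at days 6-8, 4 at days 10-14, 3 at days 16-18 and 2 at days 21-24. Titles mark the libraries of days 16-18 as PJUV and those of days 21-24 as JUV. For comparison, 1 library without a replicate was made from the dissociated cells of an entire sponge (the adult library). Replicates are numbered as in the titles, which run from 2 to 5 at days 10-14. The labels give no strain, genotype, age or treatment beyond the dissociation. They do not say whether libraries came from different parent animals, so the p-values below measure the spread between libraries, which may in part be technical. From days 3-4 on, each regenerating library is labelled with a span of days, so libraries of the same window may also differ in day. Each label also names a sample set, numbered 1 to 6, that recurs across windows.

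Sponges can rebuild a body from dissociated cells. In sponges studied in this way the cells first clump together, then sort, and later form again the outer cell layer, the chambers of flagellated choanocytes that pump and filter water, and, where the species has one, the mineral skeleton. Calcareous sponges make spicules of calcium carbonate, which are laid down by cells called sclerocytes. The series title sets regeneration in this sponge beside development after the larval stage.

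Total counts ranged from 7425481 to 26087749, and replicate 1 of day 1 was the deepest, with 15395912 counts in the next library. All 61 IDs passed the filter on low counts and were tested with the other IDs (23995 in all). The files pair no ID with a gene name, and none of the IDs (0 of 35307) matched the 26717 genes of the RefSeq table for the assembly ocSycCili1.1, so the members are given by ID, without a role, a position or a sequence. For the same reason the tissue and the cell types of the libraries were not checked against marker genes. In such bulk libraries, fewer cells of a type and less RNA per cell cannot be told apart.

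The members were mostly of moderate abundance. The mean of their 5 window means from days 3-24 had a median of 32.7 CPM over the 61 members, and ran from 13.6 to 891 CPM. It lay under 50 CPM for 42 members, between 50 and 200 CPM for 10 and at 200 CPM or more for 9, and the 10 most abundant members held 69.8% of the sum. The members' median was 4.63 CPM at day 1, 4.92 CPM at day 2 and 25.5 CPM at days 3-4. It was 31.8 CPM at days 6-8, 36.0 CPM at days 10-14, 41.6 CPM at days 16-18 and 36.7 CPM at days 21-24. Together they took 0.0815% of the counts at day 1 and 0.760% at days 16-18. Members were not absent before the rise, since only 1 of 244 values on the first 2 days was a count of 0.

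By window mean, days 3 to 4 were an intermediate level for most members, but the libraries of that window differed. The members' median ran from 15.7 CPM in replicate 5 to 34.2 CPM in replicate 6, beside 31.8 CPM over the window means of days 6-8. The mean at days 3-4 had a median of 61.7% of the mean of the 4 later windows (quartiles 50.6% and 76.8%, range 40.4% to 123%), and only 3 members were at or above that later mean. Days 3 to 4 were the lowest of the 5 windows for 43 members. The highest window was days 16-18 for 28 members, days 21-24 for 16, days 10-14 for 9, days 6-8 for 7 and days 3-4 for 1. Such counts were not made for other IDs. Once raised, 23 members stayed within 2-fold over the 5 window means, and the ratio of the highest to the lowest window had a median of 2.24 and a maximum of 4.90. A course that climbed through each window up to days 16-18 was followed by 19 members.

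**Figure D1:**
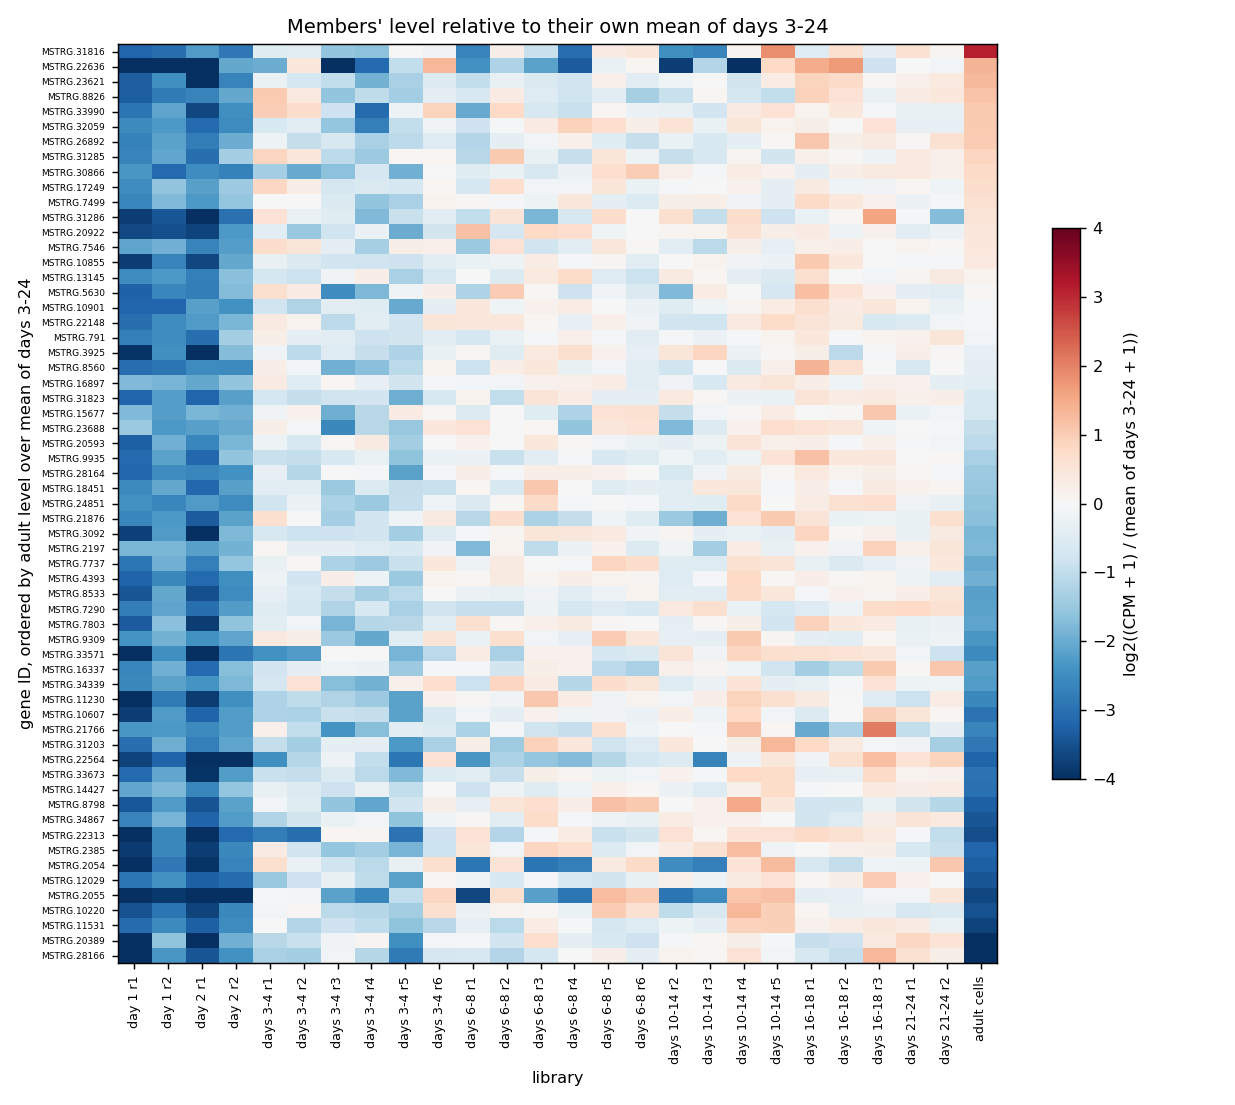
Level of each of the 61 members (rows) in each of the 26 libraries (columns, r for replicate), as log2 of CPM + 1 over the member's own mean of days 3-24 + 1, with colours held at -4 and 4. The 4 columns of days 1 and 2 are blue throughout, and the adult column runs from red at the top, where MSTRG.31816 stood at 7766 CPM, to dark blue at the bottom, where MSTRG.28166 stood at 1.05 CPM.

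MSTRG.2055 and MSTRG.31286 headed the set by the lowest window mean of days 3-24 over the early level. MSTRG.2055 had 0.537 and 3.56 CPM in the libraries of day 1 and 0.532 and 2.83 CPM in those of day 2. At days 3-4 it ran from 9.87 to 119 CPM with a median of 46.6 CPM, and at days 6-8 from 4.34 to 155 CPM with a median of 57.9 CPM. At days 10-14 the 4 libraries had 7.82, 10.7, 142 and 147 CPM, at days 16-18 the values were 50.3, 51.3 and 61 CPM, and at days 21-24 they were 59.9 and 91.6 CPM. In the middle windows all its libraries thus lay above each library of the first 2 days, but by widely differing amounts. The 5 libraries of days 16-24 lay closer together. MSTRG.31286 had 0.537 and 0.915 CPM at day 1 and 0 and 1.62 CPM at day 2. It ran from 5.06 to 30.1 CPM at days 3-4 (median 14.1 CPM) and from 4.81 to 32.7 CPM at days 6-8 (median 16.2 CPM). The later libraries held 30.9, 9.58, 32.5 and 10.7 CPM at days 10-14, 16.2, 20.7 and 60.7 CPM at days 16-18, and 18.8 and 5.2 CPM at days 21-24. Each of its later libraries lay above each library of the first 2 days.

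At the edge of the rule, MSTRG.10607 was the nearest member inside, with 18.3 CPM at day 2 and 55.1 CPM at days 3-4, a ratio of 3.01. MSTRG.14427 followed with 7.64 CPM at day 1 and 23.2 CPM at days 3-4, a ratio of 3.03. Just outside lay MSTRG.4355 and MSTRG.18375, whose lowest windows both reached 9.92 CPM, at days 6-8 and at days 3-4, against early levels of 1.5 and 2.19 CPM. MSTRG.31816 and MSTRG.22313 were the most abundant members. MSTRG.31816 stood at 97.0 and 109 CPM at day 1, 184 and 123 CPM at day 2, and 286 to 879 CPM at days 3-4 (median 645 CPM). MSTRG.22313 stood at 22 and 140 CPM at day 1, 23.8 and 95.5 CPM at day 2, and 103 to 904 CPM at days 3-4 (median 295 CPM), so that day 1 overlapped with days 3-4 and day 2 did not.

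Every library of days 3-24 exceeded every library of days 1 and 2 for 42 members, while 19 overlapped in at least 1 library. Of all IDs tested, 2.63% showed this separation in the same direction. The contrast of days 3-4 against the mean of days 1 and 2 was called higher (edgeR adjusted p under 0.05) for 57 members and lower for 0, where 6.96% of all IDs were called higher and 6.53% lower (13.5% in all). Both counts follow from the rule, so the second is no test of the rise. Overlaps were spread over days 3-14. At days 3-4, replicate 4 held 8 members at or below their highest early library, replicates 3 and 5 held 6 each, and replicates 1, 2 and 6 held 1, 1 and 0. At days 6-8, replicates 1, 3 and 4 held 3, 2 and 4 such members, and at days 10-14, replicates 2, 3 and 4 held 4, 2 and 1.

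Within the first 2 days, which the rule used only as means, the replicates differed. Replicate 2 was higher than replicate 1 for 54 of 61 members at day 1 and again for 54 of 61 at day 2. For 51 members it was higher on both days. Of all IDs tested, 48.3% were higher in replicate 2 at day 1, 44.3% at day 2 and 31.9% on both days. The members' median was 3.68 CPM in replicate 1 and 5.90 CPM in replicate 2 of day 1, and 3.37 and 7.14 CPM at day 2. The median log2 difference of replicate 2 minus replicate 1 was 0.61 at day 1 and 0.98 at day 2, whereas over the other 23934 tested IDs it was -0.01 and -0.05. Among the other 1614 IDs called higher at days 3-4, 75% were higher in replicate 2 at day 1 and 74.3% at day 2, with median log2 differences of 0.30 and 0.34. Among members the largest ratio at day 1 was that of MSTRG.20389, at 4.22 and 39.7 CPM (9.40-fold), and at day 2 this ID stood at 3.46 and 32.2 CPM (9.31-fold). MSTRG.2055 differed 6.63-fold at day 1 and 5.32-fold at day 2, and MSTRG.22313 6.36-fold and 4.00-fold. MSTRG.2197, by contrast, had 4.33 and 4.37 CPM at day 1 and 3.19 and 4.17 CPM at day 2. Replicate 1 is the deeper library on both days, with 26087749 against 9835656 counts at day 1 and 11282902 against 7425481 at day 2, and the part of depth in this difference was not tested.

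With the same early libraries, the size of the rise was compared between sample sets. Replicate 1 of both days is in set 1 and replicate 2 in set 2, the only sets that hold all 7 windows. Within the 7 libraries of set 1, the lowest window of days 3-24 was above both early libraries for 59 members and at least 3-fold above for 44, with a median ratio of 4.15. Within the 7 libraries of set 2 it was above for 59 members and at least 3-fold above for 16, with a median ratio of 2.31. In each of both sets 57 members were above, and 11 were at least 3-fold above. These libraries were used by the rule, each window of a set is 1 library, and no share over all IDs was computed. The counts are descriptions only. The rule itself returned 107 IDs without replicate 2 of day 2, 93 without replicate 2 of day 1 and 36 without replicate 1 of day 2.

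**Figure D2:**
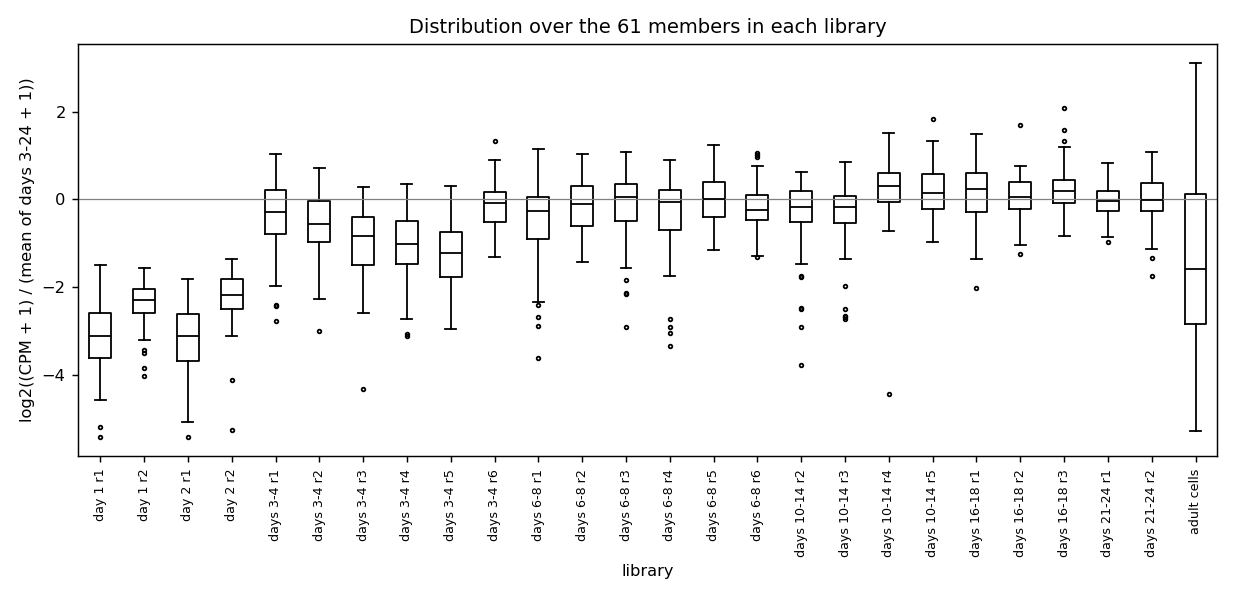
Distribution over the 61 members, in each of the 26 libraries, of log2 of CPM + 1 over the member's own mean of days 3-24 + 1. Boxes span the quartiles with the median as a line, whiskers reach the last value within 1.5 box lengths and dots lie beyond; replicate 2 of day 1 and of day 2 sits above replicate 1, and replicate 5 is the lowest box of days 3-4.

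Day 2 against day 1, tested in edgeR's quasi-likelihood model of all 25 regenerating libraries, gave no call among the members. An adjusted p under 0.05 was reached by 0 of 61 (0.0292% of all IDs tested, with 0.00834% higher and 0.0208% lower), an unadjusted p under 0.05 by 1, and DESeq2 also called 0. The fitted log2 fold changes had a median of 0.06, beside -0.04 over all IDs, and 35 of the 61 were positive.

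The 6 libraries of days 3-4 differed in the members' level. Members' medians were 31.2, 25.7, 17.9, 18.0, 15.7 and 34.2 CPM in replicates 1 to 6. Replicate 6 was above the window's mean for 57 members and replicate 1 for 46, whereas replicate 5 was above it for 13. As median log2 deviation over the members, replicate 6 stood at 0.51 and replicate 5 at -0.53, while the medians over all tested IDs lay between -0.10 and 0.09. The SD of log2(CPM + 1) over these 6 libraries had a median of 0.72 among members and 0.32 among the 7927 IDs at 10 CPM or more in all 5 windows. It was 0.54 among members at days 6-8 (0.27 in the wider group) and 0.48 at days 10-14 (0.32). The median level of both groups was close, 32.7 CPM for the members and 35.4 CPM for the wider group. Members were chosen on means of the same libraries, which can favour IDs that vary between libraries. The difference in SD is thus a description only.

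MSTRG.22636 and MSTRG.33990 varied most at days 3-4, with an SD of 2.14 and 1.56 on the log2 scale. MSTRG.22636 had 7.37, 43.8, 0.662, 2.82, 15.7 and 82.5 CPM in replicates 1 to 6, so that its window mean of 25.5 CPM was 14.1 CPM without replicate 6. At days 10-14 it had 1.43, 13.7, 0.523 and 57.2 CPM, and without replicate 5 of that window its mean was 5.23 CPM in place of 18.2 CPM. MSTRG.33990 ran from 1.24 CPM in replicate 4 to 36.5 CPM in replicate 1 of days 3-4. The steadiest members were MSTRG.10855 and MSTRG.2197, with an SD of 0.22 and 0.25. MSTRG.10855 ran from 227 to 324 CPM at days 3-4 (median 253 CPM), against 28.3 and 62.0 CPM at day 1 and 31.1 and 95.8 CPM at day 2, so the windows did not overlap. MSTRG.2197 ran from 11.5 to 19.0 CPM (median 13.7 CPM).

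Over the 6 libraries of days 3-4, the correlation of log2 levels had a median of 0.43 over the 1830 pairs of members and was positive in 75.4% of them. Neither value was computed for pairs of other IDs. Patterns opposed to each other were nevertheless seen among abundant members. Over the 16 libraries of days 3-14, after each window's mean was removed, the log2 level of MSTRG.31816 correlated at 0.5 or more with 18 of the other 60 members and at -0.5 or less with 4. That of MSTRG.22313 correlated at 0.5 or more with 16 and at -0.5 or less with 13, and the correlation between MSTRG.31816 and MSTRG.22313 was -0.42. These are descriptions of a pattern noticed after the values were seen, over libraries that share windows and without values for other IDs. At days 6-8, MSTRG.31816 had 138, 479 and 106 CPM in replicates 1, 3 and 4 and 1083, 1114 and 1223 CPM in replicates 2, 5 and 6. MSTRG.22313 had 1245, 803 and 1023 CPM in replicates 1, 3 and 4 and 375, 447 and 506 CPM in replicates 2, 5 and 6. The same 3 libraries were thus low for one abundant member and high for the other. MSTRG.2055 followed the first pattern, at 4.34, 13.7 and 7.85 CPM in replicates 1, 3 and 4 and 102, 155 and 133 CPM in replicates 2, 5 and 6, with a correlation of 0.91 to MSTRG.31816 over the 16 libraries. At days 10-14, MSTRG.31816 had 160 and 141 CPM in replicates 2 and 3 and 958 and 3210 CPM in replicates 4 and 5. Without replicate 5 its mean in that window was 420 CPM in place of 1117 CPM.

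**Figure D3:**
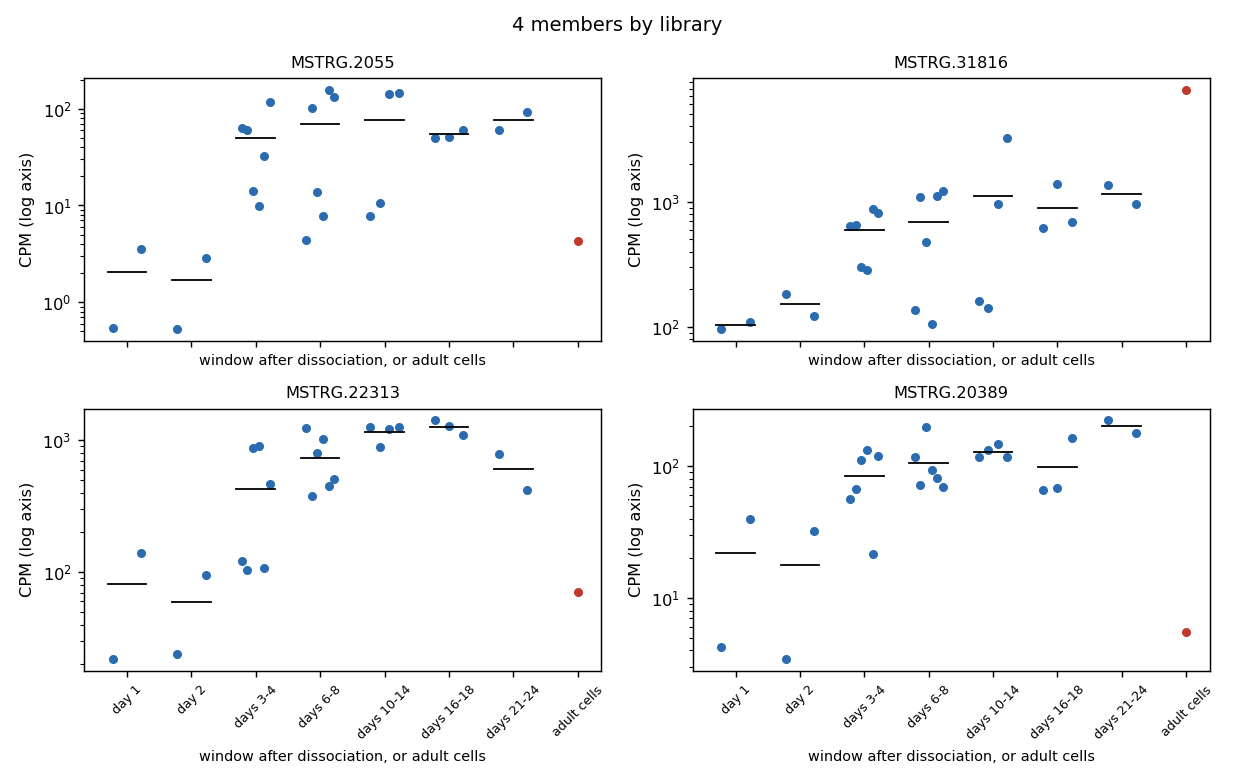
CPM on a log axis in every library of the 7 windows (blue) and in the adult library (red) for MSTRG.2055, MSTRG.31816, MSTRG.22313 and MSTRG.20389, with the window mean as a line. At days 6-8 and days 10-14 MSTRG.2055 and MSTRG.31816 form a low and a high group of libraries, with replicate 3 of days 6-8 in between for MSTRG.31816 (479 CPM). At days 3-4 MSTRG.2055 is graded. MSTRG.20389 and MSTRG.22313 differ between the 2 libraries of day 1 and of day 2.

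A further rise after days 3-4 was asked with days 10-14 against days 3-4. The rule sets no limit on this ratio itself, but both means entered the rule as lower limits. An ID that fell below 3 times its early level at days 10-14 was left out, so falls are disfavoured among members. The shares of all IDs given here are therefore no even comparison. In this comparison 11 of 61 members (18.0%) were higher at days 10-14 with an edgeR adjusted p under 0.05, and 0 were lower, where 4.85% of all IDs were called higher and 6.64% lower (11.5% in all). The fitted log2 fold change was positive for 52 members, with a median of 0.48 over the members and 0.00 over all IDs tested. The number of members called moved with single libraries. It was 3 without replicate 5 of days 3-4, and 7 without replicate 1 or without replicate 2 of that window. Without replicates 2, 3, 4 and 5 of days 10-14 in turn it was 5, 7, 6 and 5. A fit of only the libraries compared gave 6. Calls over all IDs fell as well. They numbered 2756 in the main fit and 2177 without replicate 5 of days 3-4. Without replicates 2, 3, 4 and 5 of days 10-14 they numbered 1922, 1766, 2386 and 2390, and 1572 with only the libraries compared. The part of the members in the fall was not tested.

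MSTRG.31203 and MSTRG.2385 had the largest fold changes of this step. MSTRG.31203 ran from 5.04 to 22.1 CPM at days 3-4 (median 12.6 CPM), and the libraries of days 10-14 held 38.3, 28.9, 33.7 and 73.1 CPM, all above the earlier window. The log2 fold change was 1.51 (edgeR adjusted p = 0.0335, range over the alternatives 0.0104 to 0.133). MSTRG.2385 ran from 5.98 to 31.2 CPM (median 10.8 CPM) and then held 30.4, 37.7, 59.0 and 22.3 CPM, with some overlap, a log2 fold change of 1.41 (edgeR adjusted p = 0.0225, range 0.0023 to 0.0933). The calls that held in all 19 fits were those of MSTRG.33673, MSTRG.10607 and MSTRG.11531. MSTRG.10607 averaged 55.1 ± 17.7 CPM (SD, n = 6) at days 3-4 and 143 ± 46.7 CPM (SD, n = 4) at days 10-14. MSTRG.33673 averaged 15.4 ± 4.51 CPM and 41.3 ± 11.9 CPM, and MSTRG.11531 32.0 ± 14.4 CPM and 80.7 ± 37.6 CPM, in the same windows; these 2 were chosen after their values were seen. At the other end, MSTRG.31285 had a log2 fold change of -0.60 (edgeR adjusted p = 0.441) and MSTRG.7546 of -0.55 (edgeR adjusted p = 0.361), and neither passed.

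**Figure D4:**
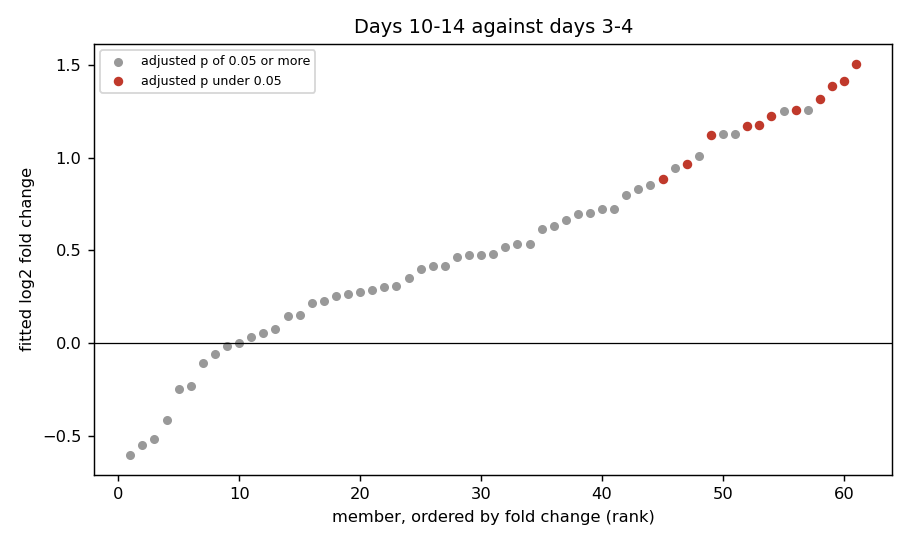
Fitted log2 fold change of days 10-14 against days 3-4 for the 61 members, ordered by size, with members of edgeR adjusted p under 0.05 in red. Of the 61 points 52 lie above 0, and the 11 red points, which run from 0.89 to 1.51, are all above 0.

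Later steps gave no call among the members in edgeR. For days 10-14 against days 6-8, 0 of 61 had an adjusted p under 0.05 (0% of all IDs tested), 3 had an unadjusted p under 0.05, and DESeq2 called 0. For the mean of days 16-18 and days 21-24 against days 10-14, edgeR called 0 of 61 (0.229% of all IDs tested, with 0.0708% higher and 0.158% lower), with 4 at an unadjusted p under 0.05. DESeq2 called 1 member there, MSTRG.8798, as lower (DESeq2 adjusted p = 0.0373, edgeR adjusted p = 0.147). Over all IDs, DESeq2 called 472 of 31616 in this step, so 1 of 61 members does not set them apart. For days 21-24 against days 16-18, edgeR called 0 of 61 (0.0458% of all IDs tested, with 0.0375% higher and 0.00834% lower), with 1 at an unadjusted p under 0.05, and DESeq2 called 0. In that last step 41 members had a lower mean CPM at days 21-24, as had 57.1% of all IDs tested. The fitted log2 fold changes had a median of -0.20 over the members and -0.03 over all IDs. These steps involve 2 to 4 libraries on a side, and a missed threshold does not show that levels were equal.

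MSTRG.8798, 1 of the 11 members called higher at days 10-14 than at days 3-4 (log2 fold change 1.17, edgeR adjusted p = 0.0478, range 0.0190 to 0.210), peaked in the middle of the course. It ran from 27.1 to 138 CPM at days 3-4 (median 76.6 CPM) and from 92.5 to 265 CPM at days 6-8 (median 177 CPM). The libraries of days 10-14 held 117, 131, 338 and 159 CPM, those of days 16-18 held 68.7, 70.7 and 96.6 CPM, and those of days 21-24 held 70.3 and 52.9 CPM. All 5 late libraries lay below the 4 of days 10-14, and the fitted log2 fold change was -1.40. MSTRG.2385 had the next lowest value, -0.93 (edgeR adjusted p = 0.391). In the other direction, MSTRG.22636 had a log2 fold change of 1.37 (edgeR adjusted p = 0.708) and MSTRG.22564 of 1.08 (edgeR adjusted p = 0.511). MSTRG.22564 held 227, 50.6, 289 and 448 CPM at days 10-14 and 300, 515, 757, 481 and 611 CPM in the 5 libraries of days 16-24, with overlap.

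The rule did not use the adult library. Adult CPM was at or above the lowest of the 5 window means of days 3-24 for 23 members, or 37.7%, a share near that of all comparable IDs (40.3% of the 7927 IDs at 10 CPM or more in all 5 windows). It was at or below the higher mean of days 1 and 2 for 17 members (68.9% of those IDs, a share that the rule lowers among members by keeping their early means low). The other 21 lay between. Against the mean of the 5 windows, the adult library was at least 3-fold lower for 32 of 61 members, where 15.5% of the 7927 IDs were, and at least 3-fold higher for 1 member, where 1.4% were. With TMM-scaled CPM these counts were 28 and 3. The median ratio of adult to regenerating level was 0.320 among members and 0.692 among the wider group. The levels of days 3-24 in these ratios were used by the rule, which can lower the ratios among members. These differences from the wider group are descriptions only. With 1 adult library there is no replicate and no test, and the intervals below cover counting error only.

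MSTRG.31816 was the member furthest above, at 7766 CPM in the adult library (exact Poisson 95% interval 7715 to 7817), 8.72-fold over its mean of days 3-24 of 891 CPM. MSTRG.22636 followed with 84.1 CPM (interval 78.9 to 89.6), 2.61-fold over 32.2 CPM. The steady member MSTRG.10855 had 521 CPM in the adult library (interval 508 to 534), beside 401 CPM, and MSTRG.31286 had 28.7 CPM (interval 25.7 to 32.0), beside 19.7 CPM. For these 4 members, the adult level was thus above the means of days 1 and 2, as each window mean of days 3-24 was by the rule. At the low end, MSTRG.28166 had 12 counts, or 1.05 CPM (interval 0.544 to 1.84), in the adult library, 75.5-fold below its mean of 79.5 CPM. MSTRG.20389 had 5.53 CPM (interval 4.25 to 7.07), 22.4-fold below 124 CPM. For MSTRG.28166, the libraries of days 16-18 held 50.7, 41.4 and 203 CPM, and without replicate 3 the mean of that window was 46.1 CPM in place of 98.3 CPM. MSTRG.2055 and MSTRG.22313 also lay low in the adult library, at 4.30 CPM (interval 3.18 to 5.68) and 71.2 CPM (interval 66.4 to 76.3).

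**Figure D5:**
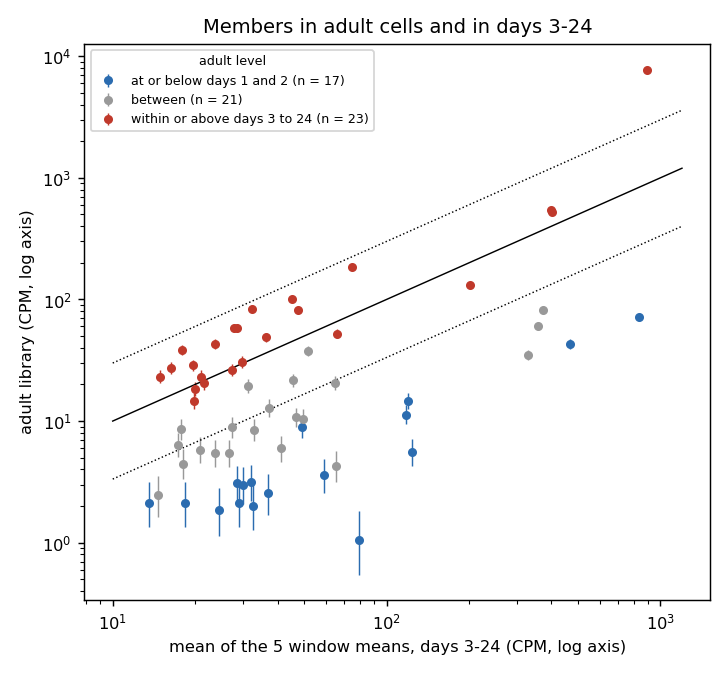
CPM of the 61 members in the adult library, with exact Poisson 95% intervals, against the mean of their 5 window means of days 3-24, both on log axes, with lines at equal level (solid) and at 3-fold either way (dotted). The 23 red members lie within or above their levels of days 3-24, the 17 blue ones at or below their levels of days 1 and 2, and MSTRG.31816 alone lies above the upper dotted line.

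The 3 groups formed by adult level can be followed through the windows. Their medians at days 3-4 were 27.9 CPM for the 17 members low in the adult, 26 CPM for the 21 between and 21.9 CPM for the 23 within or above. The level at days 3-4 was 51.6%, 67.5% and 65.8% of the mean of the 4 later windows in the same order. Days 16-18 were the highest window for 3 of 17, 12 of 21 and 13 of 23. In both early windows, all 17 members of the first group were higher in replicate 2 than in replicate 1, compared with 17 and 18 of the 21 between, and 20 and 19 of the 23 within or above. At days 3-4, the 23 members whose adult level was within or above that of days 3-24 were lowest in replicate 4, with a median log2 deviation of -0.53, and the 17 low in the adult were lowest in replicate 5, at -0.84. The groups were formed with the early means, which a high replicate 2 raises, so the early comparison is not independent of the grouping. These differences between the groups were not tested.

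Whether libraries of the same sample set deviate together within windows was tested with set terms added to the window model. No member was called in edgeR (0 of 61, and 0% of all IDs tested), with 5 members at an unadjusted p under 0.05. DESeq2's likelihood ratio test called 2 members, where it called 141 of 31669 IDs over all. These were MSTRG.8826 (DESeq2 adjusted p = 0.0474) and MSTRG.34339 (DESeq2 adjusted p = 0.0492). Both also had the lowest p in edgeR, with an edgeR adjusted p of 0.749 each. MSTRG.8826 held 93.4 and 58.8 CPM in replicates 1 and 2 of days 3-4, and 14.6 to 34.1 CPM in the other 4. MSTRG.34339 held 3.44 and 2.90 CPM in replicates 3 and 4 of that window (sets 3 and 4), and 8.17 to 22.4 CPM in the other 4. On days 1 and 2 it held 1.46 to 3.23 CPM. Set 3 did not stay low for this ID. It held 17.4 CPM at days 6-8, and was the highest library at days 10-14 (20.5 CPM) and days 16-18 (21.0 CPM). Set 4 held 5.58 CPM at days 6-8 and 10.1 CPM at days 10-14.

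Among the 61 members were 2 pairs of consecutive ID numbers, MSTRG.2054 with MSTRG.2055 and MSTRG.31285 with MSTRG.31286. Thus 6.56% of the members had a member at the number before or after, against 0.375% of all tested IDs. MSTRG.2054 and MSTRG.2055 correlated at 0.95 over the 25 regenerating libraries on the log2 scale and at 0.92 over the 6 libraries of days 3-4. The ratio of MSTRG.2055 to MSTRG.2054 ran from 0.748 to 4.62 over the libraries of days 3-24, with a median of 2.42. MSTRG.31285 and MSTRG.31286 correlated at 0.80 over the 25 libraries, and the ratio of MSTRG.31286 to MSTRG.31285 ran from 0.192 to 3.01 over the libraries of days 3-24. Whether such a pair is 1 gene under 2 IDs, or reads shared between neighbours, was not tested, and the ratios moved by more than 6-fold within each pair.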

How the data were processed

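Libraries of 25 regenerating structures and 1 of dissociated adult cells were analysed. Per the labels' protocols, RNA was extracted with Trizol and libraries were made with the Lexogen SENSE mRNA-Seq kit. The authors deposited whole-number read counts per gene ID, without normalization. Per the submitters' processing notes, Trimmomatic 0.36, HISAT2, StringTie, featureCounts, DESeq2 and Bowtie2 were used; their roles, the strand setting and the genome build are not given in the sources used here. An ID may share reads with an overlapping or near-identical gene, so single values are uncertain to that degree.

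CPM were computed on each library's total count (7425481 to 26087749, so 5 CPM is 37.1 counts in the smallest). The members and the comparisons were chosen with earlier results of these data known. Tests used edgeR 4.0.16 (R 4.3.3, limma 3.58.1; filterByExpr, TMM, glmQLFit with robust = TRUE) on 25 libraries with the window as factor, two-sided, with Benjamini-Hochberg adjustment over 23995 IDs and a threshold of 0.05. The set test added set terms. The adult library entered no test. Log2 levels used a pseudocount of 1. Tables were made with pandas 2.3.3 and SciPy 1.17.1 under Python 3.11.15. The edgeR procedure was tested on simulated data. Alternatives were other scalings, DESeq2 1.42.0, other filters, blocks, compared libraries only, other rule thresholds and leaving out libraries.

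Named members were, in each comparison, the 2 at either end: by the ratio of lowest later to early level, by abundance, by adult ratio, by fold change in the 2 longer steps, by p in the set test, by SD at days 3 to 4, and by nearness to the rule's limits. MSTRG.33673, MSTRG.11531 and MSTRG.2054 were added after their values were seen.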

Additional observations from a re-analysis of the deposited data

Results flagged for a closer look

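Dixon's test was applied to the end values of each named member and of the members' summed and median level, in the windows that have 4 to 6 libraries, for 66 sets of values. A library stood apart in 3, and chance gives about 1 in 20. MSTRG.22313 had 893 CPM in replicate 3 of days 10 to 14, and the remaining 3 libraries there held 1215 to 1258 CPM. MSTRG.20389 had 197 CPM in replicate 3 of days 6 to 8, against 70.0 to 117 CPM in the others. MSTRG.2385 had 31.2 CPM in replicate 1 of days 3 to 4, against 5.98 to 13.7 CPM in the others.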

How the results depend on the processing

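The rule gave 61 IDs, and 36 to 107 when single libraries were left out. It gave 260 IDs at 2-fold, which the limit of 200 cuts to 200, 10 at 5-fold, 98 at 5 CPM and 33 at 20 CPM. With TMM-scaled CPM 47 of 55 IDs were among the 61, and with medians 48 of 53. The 11 calls of days 10 to 14 against days 3 to 4 were 3 to 12 with single libraries left out. They were 6 in a fit of only the libraries compared, 7 with the title's replicate number as a block and 8 with the set label as a block. Over all IDs, the 2756 calls became 1766 to 2963, 1572, 2148 and 1942 in the same order. The causes were not tested. The contrast of days 3 to 4 with the first 2 days (used by the rule, so no test of the rise) called 38 to 58 members with single libraries left out. DESeq2 called 1 member for days 16 to 24 against days 10 to 14 and 2 in the set test, where edgeR called 0 members. Over all IDs, DESeq2 called 472 of 31616 in the first and 141 of 31669 in the second. Members 3-fold lower in the adult numbered 30 to 32, and non-overlapping members 42 to 48, when a library was left out. The median SD at days 3 to 4 was 0.628 to 0.777. Same-numbered libraries of days 1 and 2 deviated together (r = 0.66 between the replicate differences of both days, over 23995 IDs), but over all windows the correlation exceeded 0.1 in 8 of 49 pairs by title and 9 of 53 by set, and 7 and 8 of 25 libraries correlated best with their own number, so the replicate block was not taken as a pairing.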
